A study of Mus musculus with 24 samples.

Results

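The regions described here are stretches of chromatin long enough, around a gene short enough, to hold a whole protein-coding gene. Of the 53386 listed regions of build mm10, 47992 were autosomal with a read in any library, and 415 of these (0.86%) had both the start and the end of a coding gene between their own start and stop. They held 427 different genes, 2.07% of the 20665 autosomal coding genes in RefSeq's annotation of GRCm38.p6. A single gene was held by 397 of the regions and a pair by 17, and 1 region held 3 (Rpl7a, Surf1 and Surf2). Another 16 regions that span a gene had no read in any library and were not counted. The regions were 1600 to 19800 bases wide with a median of 5000, against 2600 over all listed regions. Their genes were short, 384 to 14444 bases with a median of 2154, against a median of 17491 over all autosomal coding genes. Genes filled a median of 46.3% of their region, and 241 of the 415 regions also touched a further coding gene that reached outside. Chromosome 7 held the most of these regions (53), followed by chromosomes 4 (42), 17 (38) and 11 (37), and chromosome 14 held the fewest (2). They made up 1.41%, 1.07%, 1.43% and 0.77% of the listed regions with a read on chromosomes 7, 4, 17 and 11. The highest share was that of chromosome 19, at 1.9%.

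Dimethylation of histone H3 at lysine 9 (H3K9me2) was measured by chromatin immunoprecipitation and sequencing in hearts of 6 C57BL6 mice, of both sexes, aged 12 months. All 6 hearts had gone through ischemic preconditioning, 4 cycles of 5 min of coronary occlusion and 5 min of reflow, with 30 min of final reperfusion. A biopsy was taken from the area at risk (downstream of the occlusion) and another from the remote myocardium of the same heart. Each biopsy gave an H3K9me2 library and an input library, so that 4 groups of 6 libraries stand for the same 6 animals, which the labels number 17, 19, 22, 23, 27 and 30. Hearts without preconditioning were not analysed here, so each comparison is between the mark and input, or between biopsies, within preconditioned hearts. Biopsies are mixtures of cell types, and a mark carried by fewer cells cannot be told apart from less of the mark in each cell.

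H3K9me2 is a mark of transcriptionally quiet chromatin, laid down mainly by G9a and its partner, the products of Ehmt2 and Ehmt1. It typically lies in broad domains over silent or lineage-restricted genes and is sparse at the starts of active genes, many of which sit in CpG islands, stretches where CG dinucleotides escaped the loss seen in most of the genome. Housekeeping and stress-response genes, which are often compact, commonly have such promoters, whereas odorant receptor and hair keratin genes mostly do not.

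Promoter sequences are given first, because regions were more often low in the mark the higher the CpG ratio of their promoter, that is the number of CG dinucleotides over that expected from its C and G content. The genes are examples chosen after their values were seen, and some are extremes of the measured range. Zfp36 had the lowest and 4930571K23Rik the highest log2 fold change of the remote myocardium. The 250 bases upstream of the annotated start are printed from RefSeq's GRCm38.p6, 5′ to 3′ on the gene's strand, with every CG dinucleotide in capitals. The first 3 genes, Zfp36, Ier5l and Ddit4, lay in regions with less H3K9me2 than input in both biopsies, and the next 3, 4930571K23Rik, Olfr12 and Krtap10-4, in regions with more. These 6 stretches lie inside the region of their gene. Pbp2, the highest region of the area at risk, is added as an exception, with a CpG ratio that goes against the pattern. Most of its promoter lies outside its region. The positions are chr7:28379229-28379478 (minus strand) for Zfp36, chr2:30474200-30474449 (minus) for Ier5l, chr10:59951771-59952020 (minus) for Ddit4, chr7:125368611-125368860 (plus) for 4930571K23Rik, chr1:92619631-92619880 (plus) for Olfr12, chr10:77827071-77827320 (minus) for Krtap10-4 and chr6:135310385-135310634 (minus) for Pbp2.
Zfp36: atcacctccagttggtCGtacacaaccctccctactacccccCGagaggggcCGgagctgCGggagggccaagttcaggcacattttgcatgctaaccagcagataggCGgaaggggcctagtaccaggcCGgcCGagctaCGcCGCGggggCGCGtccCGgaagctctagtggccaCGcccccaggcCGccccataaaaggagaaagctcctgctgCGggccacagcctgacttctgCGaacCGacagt
Ier5l: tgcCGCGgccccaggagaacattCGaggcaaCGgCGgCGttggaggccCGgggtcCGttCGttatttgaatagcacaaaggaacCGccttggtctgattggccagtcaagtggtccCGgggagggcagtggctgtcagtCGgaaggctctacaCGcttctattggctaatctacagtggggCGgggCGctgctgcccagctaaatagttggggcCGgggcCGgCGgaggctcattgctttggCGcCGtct
Ddit4: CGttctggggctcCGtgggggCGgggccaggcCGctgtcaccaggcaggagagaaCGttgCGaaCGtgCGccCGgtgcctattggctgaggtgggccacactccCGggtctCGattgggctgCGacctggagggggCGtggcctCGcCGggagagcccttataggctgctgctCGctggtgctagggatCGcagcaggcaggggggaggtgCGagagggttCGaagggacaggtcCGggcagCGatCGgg
4930571K23Rik: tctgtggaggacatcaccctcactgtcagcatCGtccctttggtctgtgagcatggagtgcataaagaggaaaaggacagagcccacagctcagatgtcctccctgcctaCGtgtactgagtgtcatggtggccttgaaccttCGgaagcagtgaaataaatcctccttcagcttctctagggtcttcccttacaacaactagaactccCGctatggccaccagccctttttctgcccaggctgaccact
Olfr12: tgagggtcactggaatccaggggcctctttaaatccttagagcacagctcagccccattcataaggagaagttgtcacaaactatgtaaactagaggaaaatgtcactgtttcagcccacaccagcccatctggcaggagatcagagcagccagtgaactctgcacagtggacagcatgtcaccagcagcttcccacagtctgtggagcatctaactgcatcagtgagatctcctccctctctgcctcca
Krtap10-4: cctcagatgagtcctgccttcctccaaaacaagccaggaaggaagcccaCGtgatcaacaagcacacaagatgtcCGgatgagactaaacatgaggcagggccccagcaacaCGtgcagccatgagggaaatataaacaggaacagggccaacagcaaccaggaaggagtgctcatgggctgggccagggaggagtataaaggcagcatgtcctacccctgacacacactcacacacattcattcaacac
Pbp2: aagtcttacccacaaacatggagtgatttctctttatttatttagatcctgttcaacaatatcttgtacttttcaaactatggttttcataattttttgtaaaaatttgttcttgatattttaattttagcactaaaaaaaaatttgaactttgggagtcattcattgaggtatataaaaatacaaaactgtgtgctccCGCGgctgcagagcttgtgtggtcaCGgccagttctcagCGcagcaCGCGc
The promoters of Zfp36, Ier5l and Ddit4 hold 18, 20 and 22 CG dinucleotides and a GC box (GGGCGG on either strand) each. Those of 4930571K23Rik, Olfr12 and Krtap10-4 hold 4, 0 and 3, and no GC box. That of Pbp2 holds 6 and no GC box. In the 300-base windows the CpG ratio was 0.70 to 0.88 for the first 3 and 0.05 to 0.20 for the next 3. It was 0.62 for Pbp2, whose window has a low C and G content of 39.3%.

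Within listed regions the libraries held 416683 to 1196368 counts (H3K9me2 of the area at risk), 443261 to 981763 for H3K9me2 of the remote myocardium and 1286383 to 2478668 for the inputs. Reads outside the listed regions were not counted in the files, so the sequencing depth is unknown. Over all 24 libraries a gene-spanning region held 6 to 4607 reads, with a median of 854. Of the 415 regions, 237 overlapped another listed region, and these held a median of 121.0 reads per kb against 236.55 for the 178 that stood alone. The assay reads chromatin and not expression, so the labelled tissue could not be checked by marker expression. Among the cell-type marker genes looked up (cardiomyocyte, fibroblast, endothelial and mural, macrophage and leukocyte, neuron), only the macrophage and leukocyte list had genes wholly inside a region, Cd68 and Cd14, and no region at a marker gene of any list was called between biopsies.

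These regions carried a smaller share of the H3K9me2 counts than of the input counts in every mouse. In the area at risk they held 1.11% ± 0.11 of H3K9me2 counts and 1.52% ± 0.07 of input counts (SD, n = 6), and in the remote myocardium 1.08% ± 0.06 and 1.56% ± 0.04. The ratio of the 2 shares was 0.669 to 0.779 in the area at risk, highest in mouse 23, and 0.649 to 0.71 in the remote myocardium, lowest in mouse 23. The input library of mouse 23 from the area at risk also stood apart, with 1.655% of its counts in these regions against 1.469 to 1.537% in the other 5.

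Whole compact genes were mostly low in H3K9me2 relative to input in both biopsies, and few were high. Each region was tested over the 12 libraries of a biopsy with edgeR's quasi-likelihood test, adjusted by Benjamini-Hochberg over all regions tested and called at an FDR of 0.05. The log2 fold changes are relative to the bulk of listed regions, whose median was 0.01 in either biopsy. In the remote myocardium 218 of the 364 gene-spanning regions tested were lower than input and 13 higher, that is 59.9% and 3.57%, where 20% of all 40767 regions tested were lower and 20.5% higher. In the area at risk 194 of 369 were lower and 7 higher, that is 52.6% and 1.9%, against 12.3% and 11.3% of all 40928 regions. The median log2 fold change was −0.56 in the remote myocardium, with a range from −1.90 to 0.88, and −0.48 in the area at risk, with a range from −2.21 to 0.82. Among regions that were not called, 84 of 133 in the remote myocardium and 104 of 168 in the area at risk had a value below 0.

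**Figure D1:**
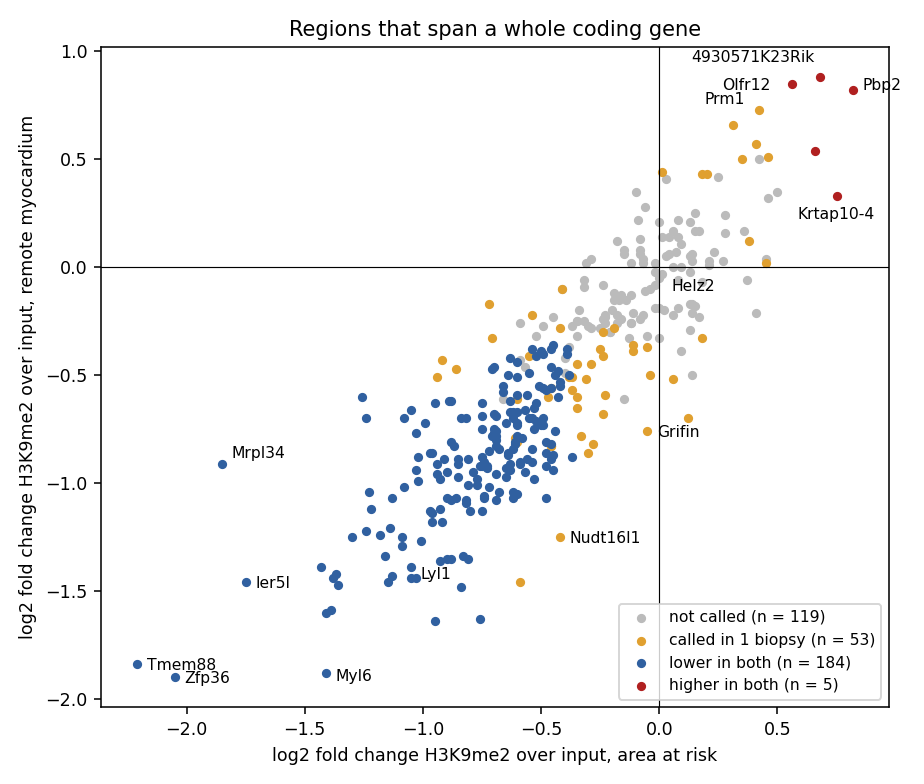
Log2 fold change of H3K9me2 over input for the area at risk (x axis) against the remote myocardium (y axis) for the 361 gene-spanning regions tested in both biopsies, with 1 point per region. Blue points (184) were lower than input in both biopsies, red points (5) higher in both, orange points were called in 1 biopsy and grey points in neither, and the cloud lies along the diagonal with most of it below 0.

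The 2 biopsies gave the same direction for every region called in both. Of the regions tested in both biopsies, 184 were lower in both and 5 higher in both, and none was higher in one and lower in the other. A further 34 were lower in the remote myocardium only, 9 in the area at risk only, 8 were higher in the remote myocardium only and 2 in the area at risk only, and 119 were called in neither. Calls shared by the biopsies were not counted over all regions, so this agreement cannot be called particular to gene-spanning regions. Across the 361 regions the log2 fold changes of the 2 biopsies had a Spearman rank correlation of 0.87, as a description over regions that share the same 6 animals but no library. Mouse by mouse, 190 of the 218 regions lower in the remote myocardium and 173 of the 194 lower in the area at risk were below input in 6 of 6 mice. Of the regions called higher, 6 of 13 in the remote myocardium and 6 of 7 in the area at risk were above input in 6 of 6. The calls come from the same libraries, so these counts by mouse describe them and are no separate support. The median SE of a log2 fold change was 0.16 in the remote myocardium and 0.17 in the area at risk. The 51 regions left untested in the remote myocardium were thinly covered, with a median of 131 reads over all libraries, and 41 of them overlapped another listed region.

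Regions that hold a promoter without spanning their gene gave values close to these. Among 3879 autosomal regions tested in the remote myocardium that are not gene-spanning but hold a whole RefSeq promoter window (250 bases before to 50 after the start) of a coding gene, 51.9% were lower and 4.51% higher, with a median of −0.47. For regions in or at a coding gene without such a window the shares were 20.2% and 15.9%, with a median of −0.04. Regions that touched no coding gene went the other way, with 7.55% lower, 36.3% higher and a median of 0.27. The area at risk gave the same order, with 39.0%, 11.2% and 4.28% lower in the 3 classes against 52.6% of the gene-spanning regions. In both biopsies the gene-spanning regions therefore stood next to the other promoter-holding regions and apart from the remaining classes. The 90 gene-spanning regions that hold no promoter window of the table had 58.1% lower in the remote myocardium and, in the area at risk, 38 of 76 tested, against 60.3% and 53.2% for the 325 that hold one.

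**Figure D2:**
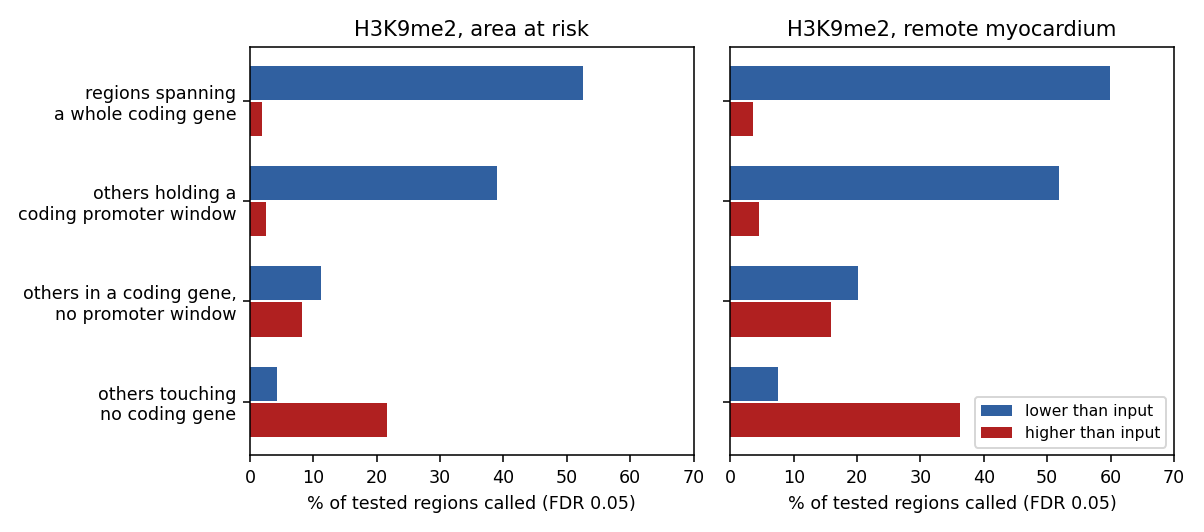
Percent of tested regions called lower (blue) or higher (red) than input, in the area at risk (left) and the remote myocardium (right), for gene-spanning regions and 3 classes of other autosomal regions. Bars start at 0, and the blue bar is longest for the gene-spanning regions (52.6% and 59.9%) while the red bar is longest for regions that touch no coding gene (21.6% and 36.3%).

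Wider regions were called lower more often. The widest gene-spanning regions, those over 6400 bases, had 81.0% lower in the remote myocardium and 71.3% in the area at risk, with no region higher in either. The narrowest, of up to 4000 bases, had 41.5% and 39.0% lower, beside 49.9% and 36.9% among promoter-holding regions of the same widths. Above 6400 bases those regions reached 69.6% and 56.2%. Wide regions hold more reads, which bears on how many can be called, and the medians moved as well, from −0.35 to −0.70 from the narrowest to the widest group in the remote myocardium and from −0.33 to −0.59 in the area at risk. The 178 regions that overlap no other listed region had 54.2% lower with a median of −0.42 in the remote myocardium and 48.2% with a median of −0.39 in the area at risk. The 237 that overlap another had 64.8% (median −0.62) and 56.2% (median −0.54). All 7 regions higher in the area at risk stood alone, as did 12 of the 13 higher in the remote myocardium.

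Immediate early and stress-response genes, some of which cells switch on within minutes of a stimulus, were among the regions lowest in the mark. Of the 14 such regions, 9 of 13 tested were lower in the area at risk and 9 of 12 in remote myocardium, none was higher, and the medians were −0.92 and −0.96. Over all gene-spanning regions tested 52.6% and 59.9% were lower, with medians of −0.48 and −0.56. Over all regions 12.3% and 20% were lower. The counts of this short list thus lie not far above the shares of gene-spanning regions, while its medians were lower. The lowest region of the list held Zfp36 and spans chr7:28376200-28380599. Zfp36 encodes tristetraprolin, a protein that binds AU-rich messenger RNAs and speeds their decay. Zfp36 had 1.71, 10.5 and 15.1 CPM (counts scaled to the library's total; lowest, median and highest of 6 mice) in H3K9me2 of the area at risk and 32.9, 39.6 and 46.1 in its input. In the remote myocardium it had 6.02, 8.54 and 16.4 CPM in H3K9me2 and 33.8, 39.9 and 43.3 in input. No H3K9me2 library of either biopsy reached its lowest input library. The log2 fold change of Zfp36 was −2.05 (SE 0.22, adjusted p = 1.64e-09 by edgeR's quasi-likelihood test) in the area at risk and −1.90 (SE 0.20, adjusted p = 5.49e-16) in the remote myocardium.

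Ier5l, a gene of the immediate early response 5 family at chr2:30471600-30476199, had 7.34, 12.4 and 19.6 CPM in H3K9me2 of the area at risk against 42.3, 46.9 and 51.8 in input. In the remote myocardium its values were 12.7, 16.7 and 21.6 CPM against 41.5, 48.8 and 55.0. The groups were again fully apart, and the log2 fold changes were −1.75 (SE 0.18, adjusted p = 3.49e-10) and −1.46 (SE 0.17, adjusted p = 4e-14), by edgeR. Ddit4 (chr10:59944400-59952799), whose product restrains the growth kinase complex mTORC1 under stress, kept a higher level of the mark, with 28.1, 41.1 and 49.7 CPM in H3K9me2 of the area at risk against 71.6, 74.5 and 91.1 in input. Its remote values were 26.8, 30.7 and 47.2 CPM against 62.5, 80.0 and 87.3, and the log2 fold changes were −0.92 (SE 0.13) in the area at risk and −1.18 (SE 0.13) in remote myocardium. Gadd45g, a stress-response gene, had −1.22 and −1.12 in the 2 biopsies. Ier3 had −1.02 and −0.99, and Cebpb, a bZIP transcription factor of inflammation and metabolism, had −0.73 and −0.93. Socs3, an inhibitor of cytokine signalling through JAK and STAT proteins, had −0.69 in both, and Id1, an inhibitor of helix-loop-helix transcription factors, had −1.15 and −1.46. These 5 were called lower in both biopsies.

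The stress-response list was not uniform. Dusp2, a phosphatase of MAP kinases, had −0.52 (adjusted p = 0.0984) in the area at risk and −0.32 (adjusted p = 0.205) in remote myocardium. Plk3, a polo-like kinase, had −0.35 and −0.25, and Cebpa had −0.32 and −0.25, none of them called by edgeR. Cdkn1c, an imprinted inhibitor of cyclin-dependent kinases, was called in the remote myocardium only (−0.28, adjusted p = 0.0349), with −0.19 in the area at risk. Socs1 was too thinly covered to be tested in either biopsy, and Id3 was tested and lower in the area at risk alone.

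**Figure D3:**
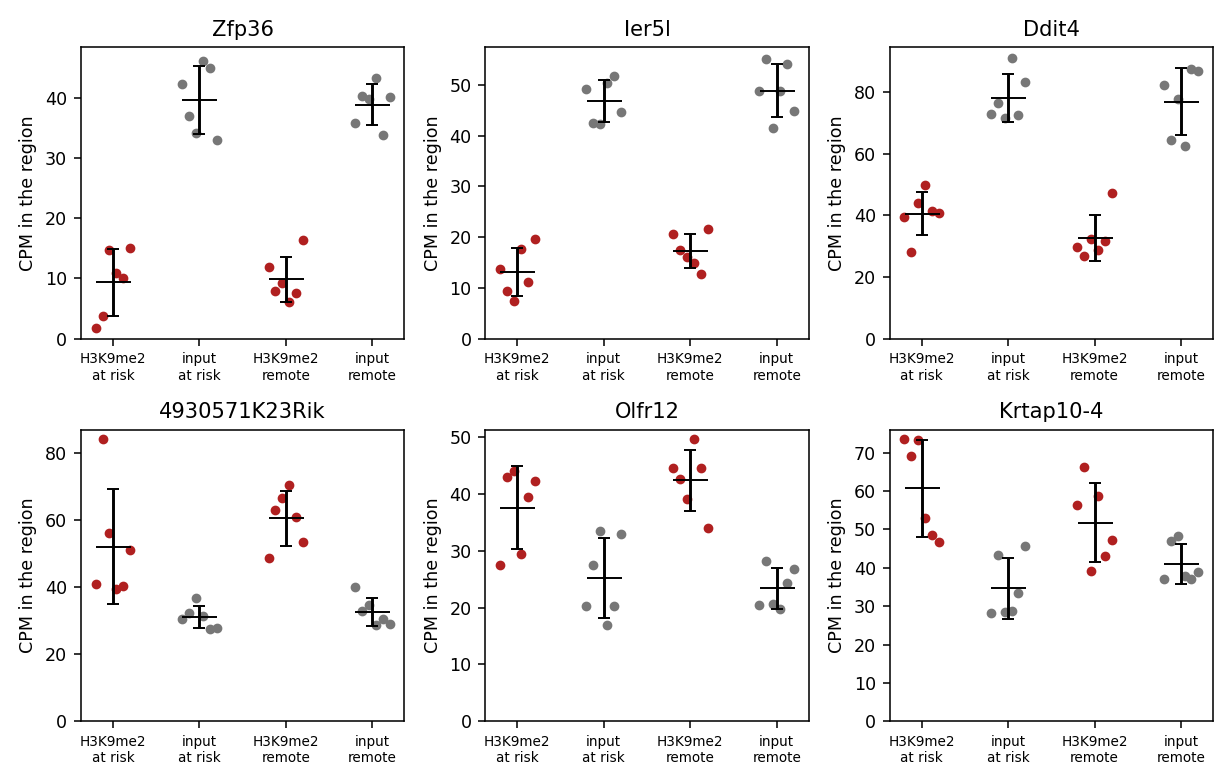
CPM (counts scaled to the library's total; y axis, from 0) in 6 gene-spanning regions, with 1 point per library for H3K9me2 (red) and input (grey) of the area at risk and the remote myocardium; horizontal ticks and bars are the mean ± SD of 6 mice. Zfp36, Ier5l and Ddit4 sit below input in both biopsies, and 4930571K23Rik, Olfr12 and Krtap10-4 sit above it.

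Genes of the cytoplasmic ribosome, which every cell transcribes, were mostly lower than input. Of 17 regions assigned by symbol, 16 were tested, all 16 were lower in the area at risk and 15 in remote myocardium, with medians of −0.90 and −0.88. Among all gene-spanning regions tested 52.6% and 59.9% were lower, and among all regions 12.3% and 20%. The area-at-risk count includes values near the threshold and was 11 without mouse 27 or mouse 30 and 11 with DESeq2. Fau (chr19:6056400-6059799), which encodes a ubiquitin-like protein fused to a small-subunit protein, had 3.74, 10.4 and 20.2 CPM in H3K9me2 of the area at risk against 28.9, 29.8 and 34.0 in input. Its remote values were 3.16, 14.1 and 20.7 CPM against 27.1, 33.7 and 41.3. No H3K9me2 library reached the inputs, and the log2 fold changes were −1.37 (SE 0.22, adjusted p = 6.34e-06) and −1.42 (SE 0.20, adjusted p = 8.64e-10), by edgeR. Fau falls outside the rule for named regions and was chosen after its values were seen. The region with Rpl7a and its neighbours Surf1 and Surf2 had −0.96 and −0.86. Rps28 had −1.26 in the area at risk and −0.60 in remote myocardium, where the call was lost without mouse 30 (−0.46). Rplp1 had the highest ribosomal value of the remote myocardium, −0.33 (adjusted p = 0.28), and −0.71 (adjusted p = 0.0493) in the area at risk, where the highest was −0.52. Rps19bp1, which the symbol rule placed here, encodes a binding partner and not a ribosomal protein, and had −0.83 and −1.34. Ribosomal protein genes have many processed copies elsewhere in the genome, so how reads between copies were placed may bear on these counts and was not tested.

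Mitochondrial gene products were also mostly lower than input, with 6 of 8 regions lower in both biopsies and medians of −0.73 and −0.99. Over all gene-spanning regions tested 52.6% and 59.9% were lower, with medians of −0.48 and −0.56. Over all regions 12.3% and 20% were lower. With 8 regions, the count of 6 lies near the shares of gene-spanning regions and does not set this family apart. Cox6a1, a subunit of cytochrome c oxidase, had −0.97 and −1.13 in the area at risk and the remote myocardium. Timm13, a chaperone of protein import, had −0.80 and −1.13, and Ndufs8, a subunit of complex I, had −0.65 and −0.72. Mrpl34, of the large mitochondrial ribosomal subunit, was a thinly covered region with 1.71, 4.32 and 9.1 CPM in H3K9me2 of the area at risk against 13.6, 19.0 and 24.3 in input. Its log2 fold changes were −1.85 (SE 0.30) and −0.91 (SE 0.26). Mrpl43 differed in the opposite way, with −0.48 (adjusted p = 0.0122, lost without mouse 27) in the area at risk and −1.07 (adjusted p = 2.31e-10) in remote myocardium. Mrps12 (−0.14 and −0.15) and Uqcc3 (−0.24 and −0.08) were not called in either.

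Developmental transcription factors of the Hox, Fox, Tbx and Hes kinds split into 2 sets. Foxc2, a forkhead factor of vessel and mesoderm development, had −0.96 and −1.18, Hoxa13, a factor of limb patterning, −0.74 and −1.06, and Tbx2, a T-box factor that shapes the atrioventricular canal, −0.53 and −0.98. With Hes6 (−0.48 and −0.92) and Hes3 (−0.37 and −0.88) these made 5 of 8 tested regions lower in both biopsies. This share of 62.5% lies near the 52.6% and 59.9% of all gene-spanning regions, where all regions tested had 12.3% and 20%. The other 3 tested, Foxe1, Hoxc11 and Foxb2, had −0.21 to 0.08 in the remote myocardium and −0.15 to 0.41 in the area at risk and were not called. The remote count stayed at 5 whichever mouse was left out, while the area-at-risk count was 2 without mouse 30 and 3 without mouse 17, 19 or 27. Hes5 and Hoxa7 were too thinly covered to be tested.

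Heat shock and histone regions were called lower less often than gene-spanning regions as a whole (52.6% and 59.9%). Of 7 chaperone regions, 2 were lower in the area at risk and 3 in remote myocardium (28.6% and 42.9%). For the 9 tested histone regions the shares were 22.2% and 33.3%. Over all regions tested they were 12.3% and 20%. Dnajb1, a co-chaperone of the HSP70 family, had −0.70 (adjusted p = 0.0103) and −0.46 (adjusted p = 0.0361). Hspb1, a small heat shock protein abundant in muscle, had −0.35 and −0.45, called in the remote myocardium (adjusted p = 0.0177). Hspa1a, an inducible HSP70 gene with a near-identical neighbour, had −0.12 and 0.02. None of the chaperone calls stood under every left-out mouse: 0 remained in the area at risk without mouse 17 and 0 in the remote myocardium without mouse 27. Of 12 histone regions 9 were tested, and the linker histone gene H1f2 was the one clearly low, at −1.38 (adjusted p = 0.000225) and −1.44 (adjusted p = 2.18e-06). H2ac18 was called in both biopsies (−1.24 and −0.70) and H2aw in the remote myocardium (−0.81), and all 3 calls were lost without mouse 17. With each mouse left out the count of histone regions lower was 1 to 2 in the area at risk and 1 to 4 in remote myocardium. The other 6 had −0.37 to −0.02 in the area at risk and −0.27 to 0.13 in remote myocardium. Replication-dependent histone genes are near-identical copies, so their counts are uncertain.

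**Figure D4:**
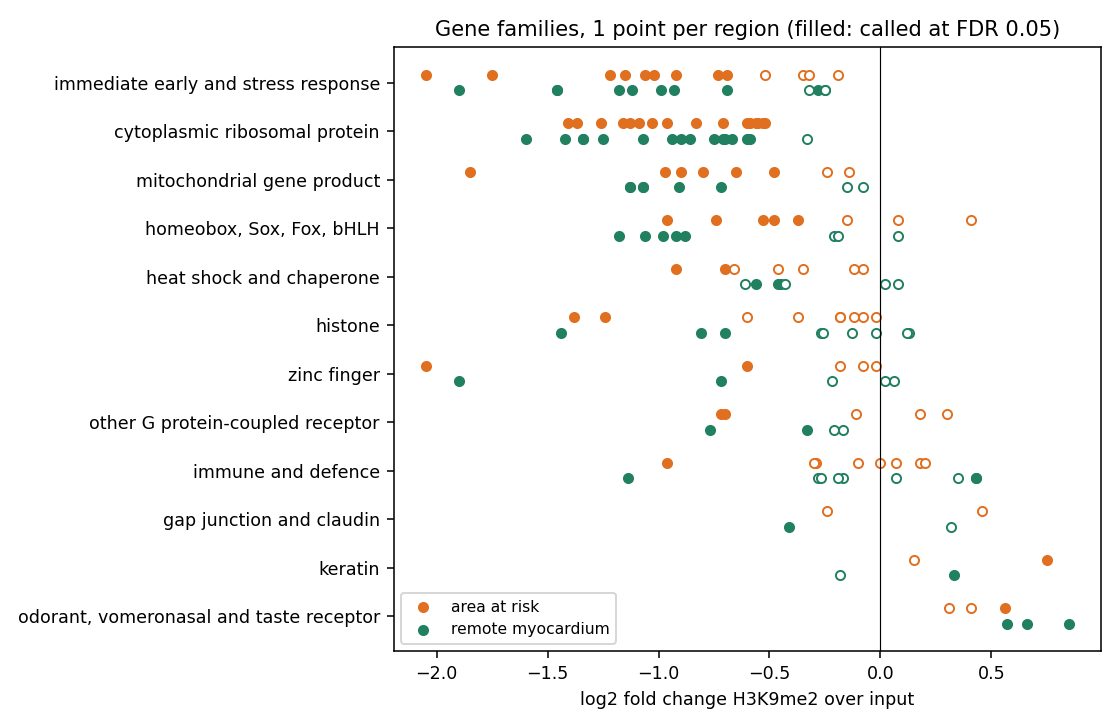
Log2 fold change of H3K9me2 over input (x axis) for gene-spanning regions grouped by family, with 1 point per tested region and biopsy, orange for the area at risk and green for the remote myocardium; filled points were called at an FDR of 0.05. Ribosomal and immediate early regions lie left of 0, and the 3 odorant receptor regions lie right of it, at 0.31 to 0.85.

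Outside these lists the regions lowest in the mark held genes of several kinds. Lyl1, a basic helix-loop-helix factor of blood cells, had −1.05 and −1.39, with 16.5, 21.6 and 36.8 CPM in remote H3K9me2 against 50.7, 55.9 and 71.4 in input. Fam174c had −1.13 and −1.43, B3galt4, a galactosyltransferase, −0.93 and −1.36, and Cactin −0.90 and −1.35. The region with Fam89b and Znrd2 had −1.30 and −1.25, with no read in remote H3K9me2 of mouse 22 (a count of 0 allows up to 6.78 CPM there) and up to 31.6 CPM in the other 5. The next 4 lie below the median coverage that the rule for named regions asks for, and they were chosen after their values were seen. Tmem88 had the lowest value of the area at risk, −2.21 (SE 0.32), with −1.84 (SE 0.28) in the remote myocardium. Myl6, the essential light chain of non-muscle and smooth muscle myosin, had −1.41 and −1.88, and Ckb, the brain-type creatine kinase, −0.95 and −1.64. Actb, the cytoplasmic beta-actin gene, had −1.18 and −1.24.

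Not every region that spans a gene was low in the mark. Helz2, the longest gene held whole (14444 bases in chr2:181224400-181242999), had 61.2, 80.5 and 92.0 CPM in H3K9me2 of the area at risk against 68.5, 81.0 and 82.8 in input, and 72.6, 75.9 and 85.2 against 69.7, 81.6 and 92.6 in the remote myocardium. The groups overlapped almost wholly, and the log2 fold changes were 0.01 (SE 0.11) and −0.03 (SE 0.10). Sfn, which encodes a 14-3-3 adaptor protein of epithelia, lies in the widest region (19800 bases) and had −0.44 (SE 0.10) and −0.50 (SE 0.09), both called.

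Few regions had more H3K9me2 than input. Of the 15 called higher in at least 1 biopsy, 3 held odorant receptor genes, 4 predicted genes, 2 immune genes and 1 a keratin-associated gene, and 5 were on none of the lists. In the remote myocardium 4 of 43 tested predicted-gene regions (9.3%) and 2 of 9 immune regions (22.2%) were higher, beside 20.5% of all regions tested. The predicted-gene share thus lay below that of all regions and the immune share near it. The odorant receptor regions were all higher in the remote myocardium (Olfr12 0.85, Olfr155 0.66, Olfr156 0.57), and Olfr12 also in the area at risk. Olfr12 (chr1:92619200-92622199) had 33.9, 43.5 and 49.6 CPM in remote H3K9me2 against 19.8, 22.5 and 28.2 in input, with no overlap (SE 0.15, adjusted p = 1.41e-06 by edgeR). In the area at risk it had 27.4, 40.8 and 44.0 CPM against 16.9, 23.9 and 33.4, which overlap, and the log2 fold change was 0.56 (SE 0.18, adjusted p = 0.0165), no longer called without mouse 27 (0.48). In each of the 6 mice its H3K9me2 level was above its own input in both biopsies.

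The highest value of the remote myocardium, 0.88 (SE 0.13, adjusted p = 5.4e-09), belonged to 4930571K23Rik, a predicted coding gene at chr7:125368400-125371999. It had 48.9, 62.1 and 70.7 CPM in remote H3K9me2 against 28.9, 31.7 and 40.1 in input. In the area at risk it had 39.6, 46.2 and 84.2 CPM against 27.7, 30.9 and 36.8, a log2 fold change of 0.68 (SE 0.15, adjusted p = 0.000997). The groups did not overlap in either biopsy. Pbp2 was the highest in the area at risk, with 0.82 in both biopsies (SE 0.22 and 0.19), although mouse 23 had less H3K9me2 (16.8 CPM) than input (18.5 CPM) there. Prm1, a protamine that packs sperm DNA, had 0.73 (SE 0.15, adjusted p = 2.53e-05) in the remote myocardium and 0.42 (adjusted p = 0.0635) in the area at risk. Ldhal6b, a lactate dehydrogenase-like gene, had 0.50 and 0.35, called in the remote myocardium alone. Defb25, a beta-defensin, and Ifnl2, an interferon lambda, had 0.43 each in the remote myocardium, and both calls were lost without mouse 27 (that of Ifnl2 also without mouse 17). Guca2a and Guca2b, the neighbouring genes of the gut peptides guanylin and uroguanylin, were called in the area at risk only, at 0.45 and 0.38, with 0.02 and 0.12 in the remote myocardium. Both lost the call without mouse 17, Guca2a also without mouse 27 and Guca2b also without mouse 22 or 30.

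A cluster of mostly predicted genes around Krtap10-4, a hair keratin-associated gene of chromosome 10, held 4 of the 13 regions higher in the remote myocardium. Grouping regions with gaps of at most 100000 bases, a grouping made after the values were seen, gave 12 of them at chr10:77687600-77903399, all tested in both biopsies. In the area at risk 2 of the 12 were higher, beside 11.3% of all tested regions, and in remote myocardium 4 of 12, beside 20.5%, so these shares lie near the background. None was lower, and the medians were 0.22 and 0.21. Krtap10-4 (chr10:77826000-77829999) had 46.8, 61.1 and 73.6 CPM in H3K9me2 of the area at risk against 28.1, 31.1 and 45.7 in input, apart from each other by a narrow gap. In the remote myocardium it had 39.1, 51.8 and 66.3 CPM against 37.1, 38.4 and 48.4, which overlap. The log2 fold changes were 0.75 (SE 0.15, adjusted p = 0.000147) and 0.33 (SE 0.13, adjusted p = 0.03), the latter not called without mouse 17, 19 or 23, with DESeq2 or at an FDR of 0.01. The other keratin-associated region, Krtap5-1 of chromosome 7, was not called in either biopsy (0.15 and −0.18), nor were Gm4559 and Gm10013 beside it. Gm9508, in the cluster of chromosome 10, had 0.66 and 0.54. Gm10272 had 0.46 (adjusted p = 0.0677 by edgeR, not called) and 0.51. Gm3285 had 0.01 and 0.44, the latter not called without mouse 23, 27 or 30. Over all predicted-gene regions, 4 were higher in the remote myocardium with all mice and 2 without mouse 27. The densest cluster of chromosome 2, 9 regions at chr2:25178600-25583599 from Nrarp to Phpt1, had 6 lower in the area at risk and 8 in remote myocardium, with medians of −0.44 and −0.76. Beside these counts, 52.6% and 59.9% of all gene-spanning regions tested were lower, and 12.3% and 20% of all regions. Another cluster, 7 predicted genes at chr4:88755000-88804999, had no call in either biopsy and medians of −0.20. Keratin-associated genes and these predicted genes come in similar copies, so their counts are uncertain.

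**Figure D5:**
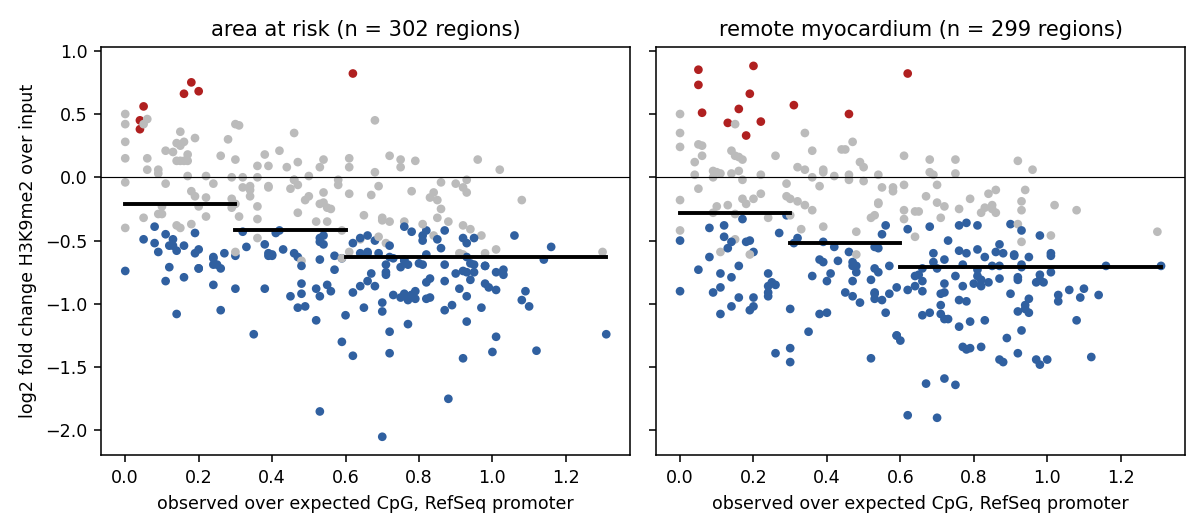
Log2 fold change of H3K9me2 over input (y axis) against the observed over expected CpG ratio of the RefSeq promoter (x axis) in the area at risk (left) and the remote myocardium (right), with 1 point per region; blue points were lower than input, red points higher, grey points not called, and black lines are medians of the bins under 0.3, 0.3 to 0.6 and over 0.6. The medians fall from −0.21 to −0.63 on the left and from −0.28 to −0.71 on the right.

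Regions whose promoter had a higher CpG ratio were more often low in the mark. Of the 427 genes, 347 matched a promoter window in the RefSeq table, and their median ratio of observed to expected CpG was 0.58, near the 0.57 over 21263 windows of coding genes. Regions whose promoter ratio was over 0.6 had 72.5% lower in the remote myocardium (median −0.71) and 66.9% in the area at risk (median −0.63), with 1 region higher in each. At ratios from 0.3 to 0.6 the shares were 54.7% (median −0.52) and 46.2% (median −0.42). Under 0.3 they were 41.9% (median −0.28) and 35.3% (median −0.21), and this bin held 9 of the regions higher in the remote myocardium and 6 of the 7 higher in the area at risk. Across regions the Spearman rank correlation between CpG ratio and log2 fold change was −0.44 (n = 302) in the area at risk and −0.38 (n = 299) in remote myocardium, given as a description over regions that share the same libraries. The rank correlation with region width was −0.20 and −0.24, and that with gene length −0.18 and −0.22.

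Exceptions stood at both ends of the promoter scale. Lyl1, with a promoter ratio of 0.26, was among the lowest regions, and Cd68, a macrophage gene with a ratio of 0.24, had −0.69 and −0.76. Pbp2, with a ratio of 0.62, was the 1 region over 0.6 that was higher than input. Most of its promoter lies outside the region measured, and whether this bears on its value was not tested. Among short motifs searched on both strands of the 300-base windows, the GC box GGGCGG was found in 50.1% of the promoters of genes held whole, against 46.2% of all coding and 35.7% of all promoter windows. TATAAA was found in 12.7% against 12.6% of all coding promoters and 13.6% of all windows, and CCAAT in 38.0% against 38.2% and 37.4%. The cyclic AMP response element TGACGTCA was found in 12 of the 347 (3.46%) against 2.23% and 1.79%, and the AP-1 site TGANTCA in 20 (5.76%) against 6.99% and 7.81%. Regions whose genes are all predicted, without a given name, had 31.0% lower in the remote myocardium and 26.2% in the area at risk, against 63.7% and 56.0% for those with named genes. The 18 regions with 2 or more genes had 14 lower in each biopsy.

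Between the area at risk and the remote myocardium no gene-spanning region was called. Of 277 tested for H3K9me2, 0 passed an FDR of 0.05 with edgeR (0% of all 31526 regions) or with DESeq2, and the lowest adjusted p was 0.999. At an unadjusted p under 0.05 there were 12 (4.33%, against 4.03% of all regions), or 7 with DESeq2. Inputs gave 0 of 383 (0% of all 42603 regions), with 17 at an unadjusted p under 0.05 (4.44% against 2.72%), 11 with DESeq2. The input-corrected difference, that is H3K9me2 over input in the area at risk minus the same in the remote myocardium, gave 0 of 379 (0% of all 42445 regions), with 21 at an unadjusted p under 0.05 (5.54% against 4.07%). In simulated counts the test found 76.6% of 2-fold changes between H3K9me2 groups but 36.0% of 2-fold input-corrected differences. Most input-corrected differences of that size would therefore be missed at this depth, and smaller ones were not simulated. The changed regions were drawn only from those at or above the median read count, with a fixed dispersion not estimated from the data. The recovery in thinly covered regions was therefore not measured.

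The direction of the small H3K9me2 differences between biopsies rested on mouse 23. Its area-at-risk libraries held the most counts of their groups, 1196368 for H3K9me2 and 2478668 for input. Whether this bears on the direction was not tested. With all mice, 179 of 277 regions (64.6%) had a value above 0, that is more H3K9me2 in the area at risk, against 50.3% of all regions, and 11 of the 12 at an unadjusted p under 0.05 were higher there. Without mouse 23 the share was 121 of 270 (44.8%), the median went from 0.05 to −0.02, and 4 of 13 were higher. The input-corrected difference kept its direction without mouse 23 and was smaller. It was above 0 in 244 of 379 regions (64.4%, against 50.9% of all regions) with all mice, with a median of 0.09 and 18 of the 21 at an unadjusted p under 0.05 higher. Without mouse 23 it was above 0 in 214 of 376 (56.9%), with a median of 0.04 and 12 of 20 higher.

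The region with the smallest p held Nudt16l1, which encodes a binding partner of the DNA repair protein 53BP1. It had 9.35, 24.3 and 44.0 CPM in H3K9me2 of the area at risk and 9.47, 11.4 and 20.7 in the remote myocardium, with inputs of 26.0, 31.6 and 37.9 and of 25.9, 30.7 and 40.7. The H3K9me2 groups overlapped, 4 of 6 mice were higher in the area at risk, and mouse 22 was the highest there. Its difference between biopsies was 0.88 (SE 0.25, unadjusted p = 0.00072, adjusted p = 0.999 by edgeR), and the input-corrected one 0.83 (SE 0.28, unadjusted p = 0.00412). Fndc10 had 0.54 (SE 0.17) between biopsies, Grifin, a galectin-like gene of the lens, 0.59 (SE 0.21), Tbx2 0.39 (SE 0.15) and Ifi30, a lysosomal thiol reductase of antigen-presenting cells, 0.58 (SE 0.23), of which Ifi30 was higher in 6 of 6 mice and the others in 5. In the opposite direction Gpr84, a fatty acid receptor of myeloid cells, had −0.46 (SE 0.22, unadjusted p = 0.0417) and was lower in the area at risk in 4 of 6 mice. Rps28 had −0.65 (SE 0.29) and Mrpl34 −0.92 (SE 0.43) in the input-corrected difference, with unadjusted p-values of 0.0278 and 0.0331. None of these differences passed the correction over all regions.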

How the data were processed

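Raw counts per region and library came from 4 tables the authors deposited, which list the same mm10 regions. The tables also hold the authors' deposited log2 fold changes, p-values and adjusted p-values. The submitters' processing notes name edgeR, SICER 1.1 (which calls broad enriched domains) and Bowtie2 2.2.2 and give no roles; the rule for reads in overlapping regions is not given in the sources used here. Genes came from RefSeq's GRCm38.p6 tables, and coordinates are as the files give them. The counts of each contrast were fitted with edgeR 4.0.16 (R 4.3.3) to its 12 libraries, or all 24 for the input-corrected difference, with TMM, filterByExpr and the two-sided quasi-likelihood test, Benjamini-Hochberg over all tested regions, called at 0.05. SE is the size of the log2 fold change over the square root of F. CPM used TMM factors of all libraries, and ratios per mouse were log2 with 0.5 CPM added to both. DESeq2 1.42.0 was the other tool.

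At the same FDR the authors' deposited tables held 193 gene-spanning regions lower in H3K9me2 than input and 7 higher for the area at risk, 211 and 14 for the remote myocardium, and 0 between biopsies or between inputs; their log2 sign is input over H3K9me2 and was turned. Counts were simulated from each contrast's libraries with a fixed dispersion and 2-fold changes in 200 regions at or above the median read count. There edgeR recovered 84.0% for the area at risk (40987 regions tested) and 87.0% for the remote myocardium (40786 regions). Same-numbered libraries come from the same animal, which pairs the samples. Deviations from the group means correlated at −0.008 to 0.168 between mark and input libraries for the area at risk and 0.006 to 0.083 for the remote myocardium. Between the H3K9me2 libraries they correlated at −0.177 to 0.059. The values of 0.168 and −0.177 both belong to mouse 23. Named were the 10 most negative and 10 most positive called regions of each input contrast at or above the median coverage with the direction in 6 of 6 mice. Also named were the 5 of smallest p each way between biopsies, regions with 3 or more genes, the widest and those with the longest genes. Of each family, up to 3 regions of smallest p in the remote myocardium against input were named. Other members of a family were listed beside them to show its range. Some named regions are not reported here. The regions, families and lists were chosen with earlier results of these data known. Alternatives were the mouse as block, other size factors, no filter, DESeq2, a stricter FDR of 0.01, leaving out each mouse, autosomes only and narrower sets of regions. Counts of PCR-amplified reads are not independent molecules.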

Additional observations from a re-analysis of the deposited data

Results flagged for a closer look

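In 160 groups of 6 mice checked, 12 had a mouse whose gap to the nearest of the others exceeded the critical share of the group's range in Dixon's test for 6 samples, where chance gives about 1 in 20 groups. The values are log2 ratios of H3K9me2 over input per mouse. In the area at risk mouse 17 stood apart at Abhd16b (−1.35, others −0.68 to −0.33), Cdc42ep1/Lgals2 (−1.25, others −0.75 to −0.60), Mrps34/Nme3 (−1.25, others −0.93 to −0.79), Mrgpre (−0.07, others 0.15 to 0.25) and Mrpl43 (−0.15, others −0.62 to −0.50). Mouse 19 stood apart at Gpr3 (−1.21, others −0.75 to −0.54) and mouse 22 at Chad (−0.47, others −0.02 to 0.24). In the remote myocardium mouse 17 stood apart at Mrps34/Nme3 (−2.06, others −1.18 to −0.67), mouse 22 at Gm3336 (−1.07, others −0.73 to −0.54) and mouse 27 at Tbx2 (−0.57, others −1.16 to −0.95). At Fam89b/Znrd2 mouse 22 had no H3K9me2 read in the remote myocardium, and its ratio of −6.69 (others −1.57 to −0.50) is set by the added 0.5 CPM. The share of counts in gene-spanning regions was 1.655% in input of the area at risk of mouse 23, against 1.469 to 1.537% in the other 5.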

How the results depend on the processing

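With the mouse as replicate block, 204 gene-spanning regions were lower and 8 higher in the area at risk (194 and 7 without the block), and 224 and 13 in the remote myocardium (218 and 13). Among named regions the block changed 4 calls: Gjd3 and Ninj1 were gained in the area at risk and 3110082J24Rik in the remote myocardium, and H2ac18 was lost there. Leaving out each mouse gave 166 to 181 lower and 5 to 8 higher in the area at risk and 202 to 216 and 9 to 14 in the remote myocardium, with medians of −0.51 to −0.47 and −0.60 to −0.53. DESeq2 gave 162 lower and 6 higher, and 201 and 12. At an FDR of 0.01, 4 regions were higher in the area at risk. Over the regions that overlap no other, the remote median was −0.42. No count between biopsies left 0 under any setting tried. Over named regions, 2303 values kept direction and side of the threshold, 90 lost the call, 11 gained it and 0 reversed; the alternative without predicted and LOC genes was added after seeing the data. The number of H3K9me2 reads limits what can be detected in narrow or overlapped regions.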
